A study of Mus musculus with 5 samples.

Results

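Cst7, Lgals3, Lyz2, Trem2, Tyrobp, Apoe, Itgax, Lpl, Clec7a and Ctss are 10 genes that activated, phagocytic microglia raise, often called disease-associated microglia genes. They are not limited to that state. They make up 10 of the 53700 gene IDs in the deposited count table and were chosen by their symbols, with the difference between the groups described here already known, Cst7, Lgals3 and Lyz2 being among its largest increases. The values of the 10 genes in this comparison are therefore a description, and the counts of them called in the fit over all genes are no evidence beyond that choice.

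The table holds ribosome-bound mRNA of the midbrain of C57BL/6 mice aged 4 months, purified by BAC-TRAP, in which an EGFP tag on the ribosomal protein L10a lets an antibody pull down tagged ribosomes with their mRNA. Every mouse carried the L10a transgene and received AAV:THCre in the midbrain, a virus whose tyrosine hydroxylase promoter directs Cre to dopaminergic neurons, where Cre switches on the tag. Genotype L10a;Esrrg WT gave 3 libraries (replicates 2, 3 and 4), and genotype L10a;Esrrg Flox, in which the same Cre deletes Esrrg, the gene of estrogen-related receptor gamma, gave 2 libraries (replicates 2 and 4), all taken 1 month after the injection. Each library pooled the midbrains of several mice. The libraries held 20635855 to 23105058 counts assigned to genes, so that 3 counts, the limit that a count of 0 allows, correspond to 0.130 to 0.145 CPM (counts scaled to the library total). Levels are given as normalized counts, the read counts after division by each library's DESeq2 size factor. Esrrg itself had 1710.3 ± 61.4 normalized counts in Esrrg WT (SD, n = 3) and 1337 ± 236 in Esrrg Flox (SD, n = 2), with a log2 fold change of -0.35 (SE 0.13, DESeq2 adjusted p = 0.0734), where reads from the exons that are kept still add to the total. The dopaminergic markers were abundant in all 5 libraries, with Th between 9849 and 12813 normalized counts, while the libraries also held the astrocyte marker Gfap at 18865 to 32741 and the oligodendrocyte marker Mbp at 27761 to 44929.

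Microglia are the resident phagocytes of the brain. In models of amyloid deposition, demyelination and neuronal loss, part of them lower the genes of the resting, homeostatic state and raise a shared set of genes for phagocytosis, lysosomal digestion and lipid handling. The surface receptor TREM2 binds lipids and lipoproteins, among them apolipoprotein E, and signals through the adaptor TYROBP (DAP12) and the kinase SYK, and microglia without TREM2 enter this state incompletely. These genes are not markers of dopaminergic neurons. In pulldowns such as these, RNA of cells without the tag can also be carried along. A change in the number of cells of a type, in the RNA per cell or in the RNA carried along cannot be told apart.

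The promoters of the members that differed most between the groups are shown first, and whether these genes share regulation was not tested. RefSeq windows in the GRCm38.p6 build were found for 8 of the 10 members (Tyrobp and Lpl were not among them). For the 5 of these with the largest log2 fold changes, the 250 bases upstream of the annotated start are given below, 5′ to 3′ in the direction of the gene. Capitals mark matches on either strand to any of the following motifs. GAGGAA is a form of the site of the myeloid factor PU.1, and GGAAGT is a common core of the ETS family to which PU.1 belongs. TGANTCA is a loose form of the AP-1 site that takes any base in the middle, and CACGTG is an E-box bound by MITF and TFEB.
Cst7 (chr2:150570165-150570414, plus strand): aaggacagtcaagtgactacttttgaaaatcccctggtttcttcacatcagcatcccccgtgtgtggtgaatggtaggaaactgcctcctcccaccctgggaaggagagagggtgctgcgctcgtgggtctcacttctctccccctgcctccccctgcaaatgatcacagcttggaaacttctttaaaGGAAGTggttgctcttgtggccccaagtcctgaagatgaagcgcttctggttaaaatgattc
Lgals3 (chr14:47373610-47373859, plus strand): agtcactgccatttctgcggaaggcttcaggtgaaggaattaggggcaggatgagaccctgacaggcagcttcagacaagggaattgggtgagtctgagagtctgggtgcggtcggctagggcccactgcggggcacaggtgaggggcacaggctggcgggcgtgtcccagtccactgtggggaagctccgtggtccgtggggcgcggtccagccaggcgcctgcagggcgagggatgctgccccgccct
Lyz2 (chr10:117282273-117282522, minus strand): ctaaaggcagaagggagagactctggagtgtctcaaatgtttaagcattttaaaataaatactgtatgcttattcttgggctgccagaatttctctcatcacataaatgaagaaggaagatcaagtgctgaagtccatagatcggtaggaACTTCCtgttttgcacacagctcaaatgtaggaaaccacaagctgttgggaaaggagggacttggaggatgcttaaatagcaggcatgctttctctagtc
Ctss (chr3:95526536-95526785, plus strand): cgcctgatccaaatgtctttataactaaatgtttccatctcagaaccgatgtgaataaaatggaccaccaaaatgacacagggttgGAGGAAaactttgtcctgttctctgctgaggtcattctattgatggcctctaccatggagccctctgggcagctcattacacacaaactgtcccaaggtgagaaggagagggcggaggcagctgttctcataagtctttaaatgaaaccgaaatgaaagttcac
Trem2 (chr17:48346151-48346400, plus strand): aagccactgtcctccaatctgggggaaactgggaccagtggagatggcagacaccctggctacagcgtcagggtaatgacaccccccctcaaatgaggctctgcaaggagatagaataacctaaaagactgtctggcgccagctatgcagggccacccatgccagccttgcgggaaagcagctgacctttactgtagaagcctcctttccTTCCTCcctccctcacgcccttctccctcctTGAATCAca

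Cst7 held GGAAGT from -62 to -57 relative to the start, and Lyz2 held it on the opposite strand from -100 to -95. Ctss held GAGGAA from -164 to -159. Trem2 held GAGGAA on the opposite strand from -40 to -35 and TGANTCA from -9 to -3, and the Lgals3 window held none of the 4 motifs. Over the 8 members with a window, GAGGAA was found in 4 (Ctss, Clec7a, Apoe and Trem2), against 25.9% of 27025 genes with windows of the same length (some genes have several windows). GGAAGT was found in 3 members (Cst7, Itgax and Lyz2), against 22.2% of all genes, and no member held both. TGANTCA was found in 2 members (Itgax and Trem2), against 7.82% of all genes, and CACGTG in 0 of 8, against 6.86%. By window, the shares over all 32851 windows were 23.3%, 19.7%, 6.75% and 6.02% in the same order, and 6, 3, 2 and 0 of the 11 member windows held the motif. GGAAGT was added to the search after the sequences had been seen. These are matches of letters and not sites of binding.

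Of the 10 members, 9 had both Esrrg Flox libraries above every Esrrg WT library, an arrangement found in 19.9% of the 15228 genes with an adjusted p, and the exception was Apoe. By DESeq2 8 members were called higher in Esrrg Flox, at an adjusted p under 0.05 and a fold change of at least 1.5, against 1.81% of all genes tested, and 0 were called lower, against 1.46%. With edgeR 6 were called higher, against 0.607% of genes, and 0 lower, and Itgax and Clec7a were the members whose call was lost. The members' log2 fold changes ran from 0.21 to 2.90 with a median of 2.07, beside a median of -0.01 over all genes tested. They fell into a group of 8 genes at 1.60 and above and a pair, Apoe and Lpl, at 0.45 and below.

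**Figure D1:**
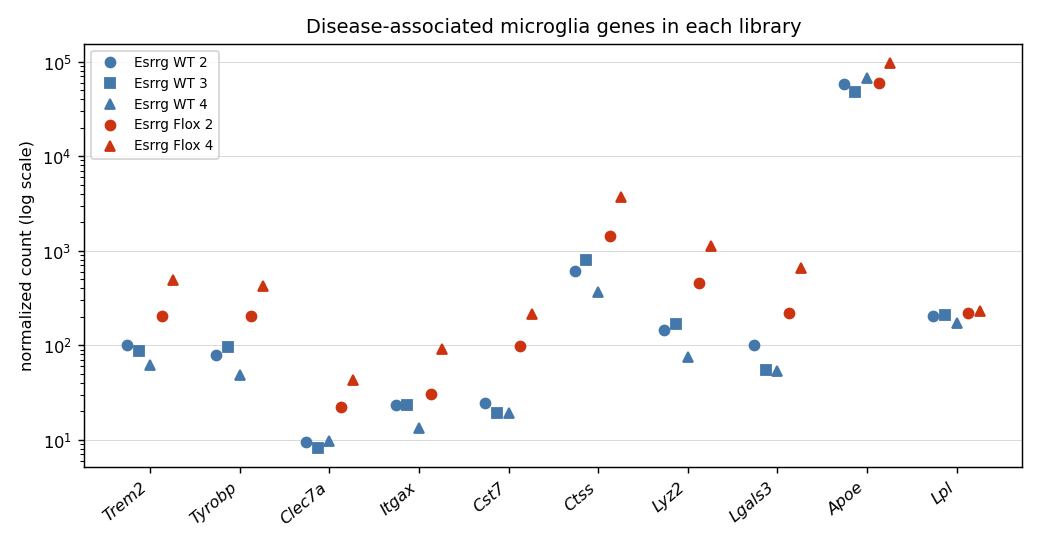
Normalized counts (log scale) of the 10 genes in each library, with Esrrg WT in blue and Esrrg Flox in red and the marker shape giving the replicate number. Both red points lie above the blue points for every gene except Apoe, and Esrrg Flox 4 is the highest library for all 10.

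Trem2, the lipid-sensing receptor, had 100.1, 87.6 and 62.5 normalized counts in Esrrg WT replicates 2, 3 and 4 and 203 and 486 in Esrrg Flox replicates 2 and 4. The lower Flox library was 2.03 times the highest WT library, and the log2 fold change was 2.05 (SE 0.33). Tyrobp, the adaptor through which TREM2 signals, had 78.0, 94.8 and 48.0 normalized counts in WT and 202 and 423 in Flox. WT 4 was the lowest library and Flox 4 the highest for both receptor and adaptor, and the log2 fold change of Tyrobp was 2.09 (SE 0.34). Clec7a, which encodes the beta-glucan receptor dectin-1, was the least abundant member, with 9.48, 8.15 and 9.61 normalized counts in WT and 22.1 and 42.7 in Flox. Its values rest on 8 to 10 reads per WT library, for which the exact 95% Poisson interval runs from 3.45 to 15.8 reads at the lowest and from 4.80 to 18.4 at the highest and covers counting error only. The log2 fold change of Clec7a was 1.83 (SE 0.63). Itgax, the integrin alpha chain known as CD11c, had 23.2, 23.4 and 13.5 normalized counts in WT and 30.7 and 90.5 in Flox. Flox 2 lay 1.31 times above the highest WT library, the smallest gap among the 8 members called, and the log2 fold change of 1.60 (SE 0.54) was 0.62 without Flox 4.

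Cst7, which encodes cystatin F, an inhibitor of lysosomal cysteine proteases, had the largest log2 fold change of the members. Its normalized counts were 24.2, 19.4 and 19.2 in WT and 97.0 and 216 in Flox, so that the lower Flox library was 4.00 times the highest WT library. The WT libraries were close together, the highest being 1.26 times the lowest, and the log2 fold change of 2.90 (SE 0.41) ranked 9 among the 15228 genes tested. Ctss, the lysosomal cysteine protease cathepsin S, had 604, 794 and 361 normalized counts in WT and 1428 and 3657 in Flox. Its WT libraries spread by a factor of 2.20, more than those of Cst7, and its log2 fold change was 2.12 (SE 0.62). Lyz2, the lysozyme that myeloid cells secrete to cut bacterial cell walls, had 143, 166 and 74.9 normalized counts in WT and 452 and 1132 in Flox. The groups did not overlap, with Flox 2 at 2.72 times the highest WT library and a log2 fold change of 2.63 (SE 0.63). Its close paralog Lyz1 had 0 to 2 reads per library, and reads that align equally well to both genes are not part of either count. Lgals3, the galactoside-binding lectin galectin-3, had 101.1, 55.0 and 52.8 normalized counts in WT and 217 and 651 in Flox. Of the members it had the widest gap between the Flox libraries, Flox 4 being 3.0 times Flox 2, and its log2 fold change was 2.64 (SE 0.69).

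The members of lipid transport stood apart. Apoe, the main lipoprotein component of the brain, was by far the most abundant member, with 58126, 47269 and 66315 normalized counts in WT and 60037 and 96168 in Flox. Flox 2 lay inside the WT range and only Flox 4 above it, and the log2 fold change of 0.45 (SE 0.31) was 0.07 without Flox 4. Most Apoe of the healthy brain is made by astrocytes. The 9 astrocyte markers summed to 88420, 74828 and 109197 normalized counts in WT and 78873 and 102553 in Flox. Their order over the WT libraries was that of Apoe, but the sums of the oligodendrocyte and of the dopaminergic markers had the same order. Of the 9 astrocyte markers 0 were called (1 had an unadjusted p under 0.05 in DESeq2, and edgeR called 0). The part of astrocyte RNA in the Apoe values was not tested. Lpl, lipoprotein lipase, which releases fatty acids from lipoproteins, had 205, 211 and 170.1 normalized counts in WT and 221 and 232 in Flox. Its groups did not overlap, but Flox 2 was only 1.05 times the highest WT library and the log2 fold change was 0.21 (SE 0.20).

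The 2 Flox libraries differed from each other in nearly all members. Flox 4 was above Flox 2 for 10 of 10, at a median ratio of 2.31 and a range from 1.05 (Lpl) to 3.0 (Lgals3), while over all genes tested the median ratio was 0.996 and 49.1% of genes were higher in Flox 4. Against the WT mean, the median ratio of the members was 2.43 in Flox 2 and 5.79 in Flox 4. Cst7 came first in both (4.63 and 10.3 times the WT mean). Itgax was 1.54 times the WT mean in Flox 2 and 4.52 times in Flox 4. Without Flox 4 the median log2 fold change of the members was 1.28 and 1 of 10 was called, with an adjusted p given for 4 of them, and without Flox 2 it was 2.54 with 8 called. All 10 log2 fold changes stayed above 0 without either Flox library, down to 0.07 for Apoe and 0.17 for Lpl without Flox 4.

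The WT libraries differed as well, and WT 4 was the lowest of the 3 for 8 of 10 members, against 38.0% of all genes tested. The exceptions were Apoe, for which WT 4 was the highest, and Clec7a. Leaving out WT 4 lowered the median log2 fold change of the members to 1.87 and left 2 of 10 called, with an adjusted p given for 3. Without WT 2 or without WT 3, 5 members were called, at medians of 2.13 and 2.20.

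**Figure D2:**
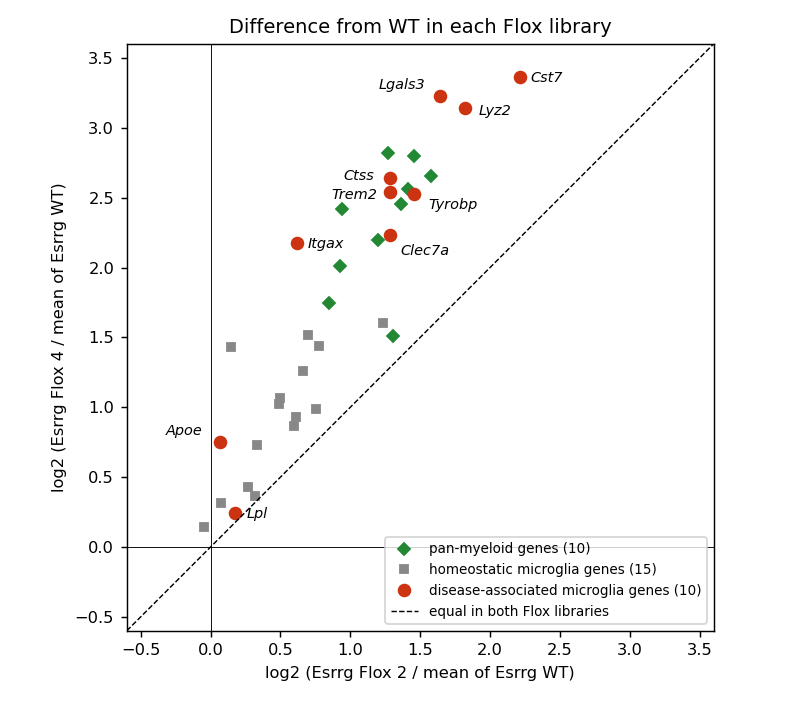
Log2 ratio of each gene to the Esrrg WT mean in Esrrg Flox 2 (horizontal) and Esrrg Flox 4 (vertical) for the 10 disease-associated genes (red circles), 10 pan-myeloid genes (green diamonds) and 15 homeostatic microglia genes (grey squares). All 10 red points lie above the dashed line of equality, with Cst7, Lgals3 and Lyz2 farthest from the origin and Apoe and Lpl near it.

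Compared per length, the members spanned a wide range in Esrrg WT. In CPM per kilobase of exon, Apoe stood at 1225 ± 186 (SD, n = 3), followed by Ctss at 19.9 ± 7.62, Tyrobp at 5.08 ± 1.70 and Lyz2 at 4.48 ± 1.71. Lgals3 stood at 1.72 ± 0.68, Cst7 at 0.974 ± 0.137, Lpl at 0.856 ± 0.11 and Trem2 at 0.774 ± 0.186, and Itgax (0.192 ± 0.057) and Clec7a (0.158 ± 0.012) were lowest. Every WT library of a gene lay above every WT library of the next in this order except for Tyrobp and Lyz2, Cst7 and Lpl, Lpl and Trem2, and Itgax and Clec7a, whose ranges overlapped. In Esrrg Flox the means were 1629 CPM per kilobase for Apoe, 83.2 for Ctss, 26.7 for Lyz2 and 20.9 for Tyrobp, and Trem2 (3.10) stood above Lpl (0.966). With coding length in place of exon length, Lpl and Trem2, whose annotated transcripts are long outside the coding part, moved above Lgals3 and Cst7. No member's exons overlapped those of another gene in the annotation used.

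**Figure D3:**
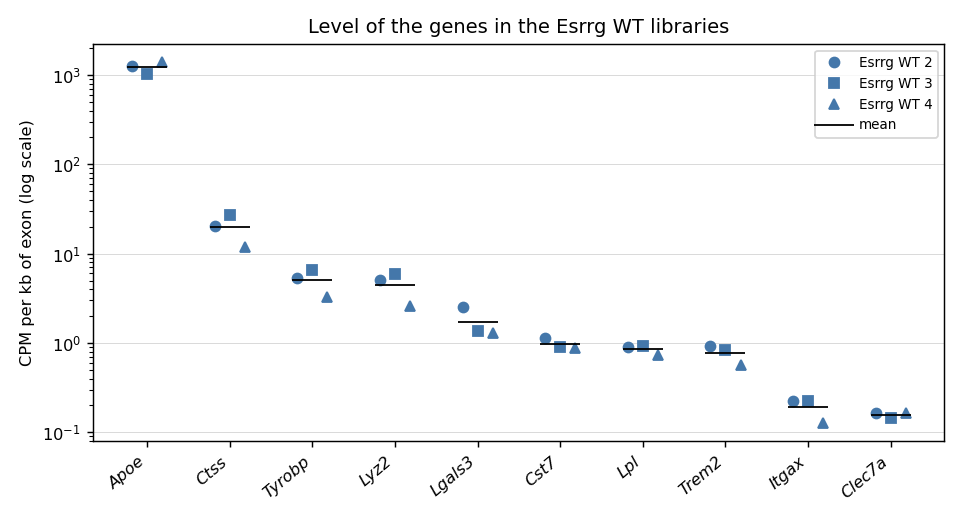
CPM per kilobase of exon (log scale) of the 10 genes in the 3 Esrrg WT libraries, ordered by their mean (black bars). Apoe lies at 1028 to 1397 in the 3 libraries and Itgax and Clec7a below 0.3, with overlapping libraries for 4 pairs of neighbours.

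A further 75 genes of the same programme, in 5 lists by role, were read from the fit over all genes. Of these, 18 were called higher in Esrrg Flox, against 1.81% of all genes tested, and 0 lower, 64 had an adjusted p, and the median log2 fold change was 0.40. At an unadjusted p under 0.05, DESeq2 gave 34 higher and 1 lower, and edgeR called 6 higher and 0 lower. Over all genes tested, DESeq2 gave 9.88% higher at that unadjusted level, the share beside which such counts for every list stand. The 18 became 1 without Flox 4, 0 without WT 4 (26 higher at an unadjusted p under 0.05), and 22 without Flox 2.

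Of these 5 lists, that of the phagolysosome had the most calls, with 8 of 16 higher, no overlap of the groups and Flox on top in 12, and a median log2 fold change of 0.64. Gpnmb, a lysosomal glycoprotein of phagocytes, had 162, 70.3 and 110.5 normalized counts in WT and 262 and 659 in Flox, a log2 fold change of 2.01 (SE 0.64, DESeq2 adjusted p = 0.0278). Ctsh, the protease cathepsin H, rose by 1.87 on the log2 scale (SE 0.38, DESeq2 adjusted p = 0.000154), and Cd68, a lysosomal membrane protein of macrophages, by 1.79 (SE 0.40, DESeq2 adjusted p = 0.00064). The most abundant genes of the list that were not called are expressed by most cell types, namely Ctsb (log2 fold change 0.20, SE 0.11) and Lamp1 (0.09, SE 0.10). Other abundant genes were called higher, among them Ctsd (0.76, SE 0.16, DESeq2 adjusted p = 0.000201) and Cd63 (0.75, SE 0.18, DESeq2 adjusted p = 0.00133). Their means over all libraries were 4651 and 3825 normalized counts. Without Flox 4, 1 gene of the list was called, and without WT 4 0 of the 12 with an adjusted p, while edgeR called 3.

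Of 13 genes of TREM2 signalling and shedding, 11 had an adjusted p and 3 were called, at a median log2 fold change of 1.03. By edgeR 0 were called (5 had an unadjusted p under 0.05 in DESeq2). Ptpn6, the phosphatase SHP-1, had 53.7, 85.6 and 25.0 normalized counts in WT and 129 and 233 in Flox, a log2 fold change of 1.72 (SE 0.42, DESeq2 adjusted p = 0.00194). Inpp5d, the lipid phosphatase SHIP1, rose by 1.60 (SE 0.42, DESeq2 adjusted p = 0.00525) and Vav1, an exchange factor for small GTPases, by 1.45 (SE 0.37, DESeq2 adjusted p = 0.00376). Syk, the kinase that TYROBP recruits, had 39.0, 48.9 and 28.8 in WT and 53.8 and 79.5 in Flox (log2 fold change 0.78, SE 0.40) and was not called. Plcg2 had both Flox libraries below every WT library, as 22.9% of all genes tested did, and was not called (log2 fold change -0.19, SE 0.25). Adam10 and Adam17, the sheddases that cleave TREM2 from the surface and are expressed widely, had log2 fold changes of -0.03 (SE 0.13) and -0.17 (SE 0.24).

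Among 17 surface and secreted genes of the programme 4 were called, at a median log2 fold change of 0.69, and 2 by edgeR. Cybb, the catalytic subunit of the phagocyte oxidase, rose by 2.21 on the log2 scale (SE 0.45, DESeq2 adjusted p = 0.000159), Cd52, a small glycoprotein of leukocytes, by 2.19 (SE 0.35, DESeq2 adjusted p = 5.31e-07), and the chemokine Cxcl16 by 1.64 (SE 0.36, DESeq2 adjusted p = 0.000443). Spp1 (osteopontin) and Igf1, which activated microglia secrete but neurons express too, were not called, and Spp1 had 2315, 2537 and 1106 normalized counts in WT and 2023 and 1375 in Flox. The iron store subunit Fth1 (log2 fold change 0.19, SE 0.09) and B2m, the light chain of MHC class I (0.38, SE 0.38), were the most abundant genes of the list without a call, and B2m was 10137 in Flox 2, below every WT library, and 20097 in Flox 4.

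Lipid handling and transcription factors had few calls. Apoc1, an apolipoprotein encoded beside Apoe, was the 1 called of 15 lipid genes, with 64.3, 68.3 and 75.9 normalized counts in WT and 124 and 167 in Flox, a log2 fold change of 1.06 (SE 0.28, DESeq2 adjusted p = 0.00504). The median of the lipid list was 0.19, and its most abundant genes, the fatty acid carrier Fabp5 (log2 fold change 0.06, SE 0.11) and the lipoprotein receptor Lrp1 (0.07, SE 0.09), were not called. Of 14 transcription factors 2 were called, and Spi1, which encodes PU.1, rose by 1.28 (SE 0.38, DESeq2 adjusted p = 0.0172), while the median was 0.32 without Tfec, which was listed at 0 in all WT libraries. By edgeR 0 of the list were called (7 had an unadjusted p under 0.05 in DESeq2). Bhlhe41 passed the test at a fold below 1.5 (log2 fold change 0.31, SE 0.11) and Bhlhe40 had -0.09 (SE 0.12).

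**Figure D4:**
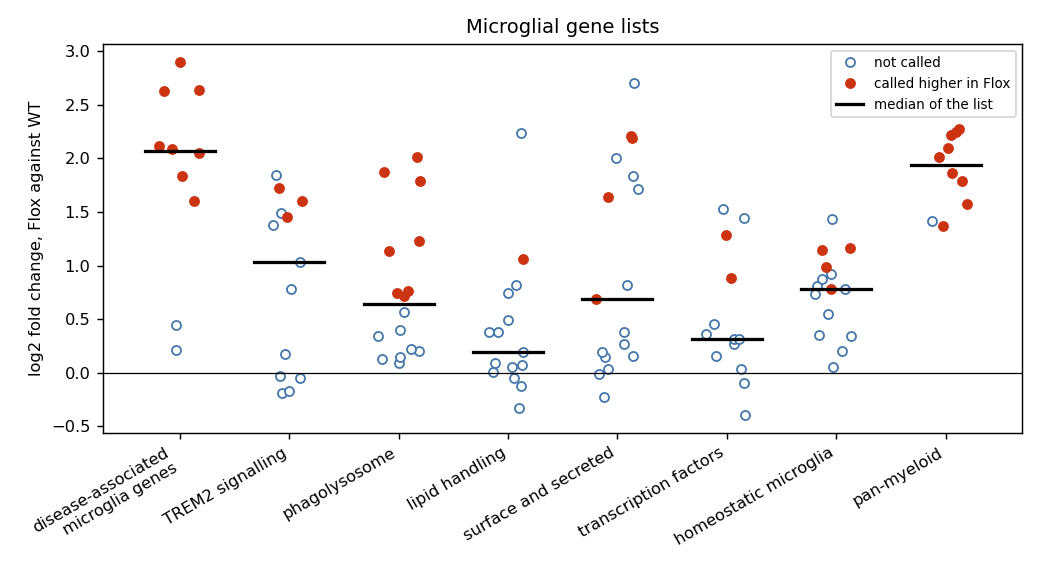
Log2 fold change, Esrrg Flox against Esrrg WT, of each gene by list, with filled points for genes called higher, open points for genes not called and bars for the median of each list, leaving out genes listed at 0 in a whole group. The medians run from 0.19 for lipid handling to 2.07 for the disease-associated microglia genes, with pan-myeloid genes at 1.94 and homeostatic microglia genes at 0.78.

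Homeostatic genes, which fall in the disease-associated state of the models named above, had log2 fold changes above 0 in 15 of 15. Of these, 4 were called higher in Esrrg Flox (Tmem119, Cx3cr1, Olfml3 and Csf1r) and 0 lower, at a median log2 fold change of 0.78. In DESeq2, 8 were higher and 0 lower at an unadjusted p under 0.05, against 9.88% of all genes tested higher. By edgeR 0 were called in either direction, with 10 higher at an unadjusted p under 0.05. Tmem119, a microglial membrane protein, had 86.4, 115 and 78.8 normalized counts in WT and 152 and 267 in Flox, a log2 fold change of 1.17 (SE 0.30, DESeq2 adjusted p = 0.00368). Cx3cr1, the fractalkine receptor, rose by 1.15 (SE 0.29, DESeq2 adjusted p = 0.00393) and Olfml3 by 0.99 (SE 0.30, DESeq2 adjusted p = 0.0171). P2ry12, the purinergic receptor of surveying microglia, overlapped between the groups, with 81.1, 54.0 and 33.6 in WT and 70.1 and 72.6 in Flox. Itgb5 (log2 fold change 0.20, SE 0.15) and Sall1 (0.05, SE 0.20) were the most abundant without a call. Without Flox 4 or without WT 4, 0 genes of the list were called, with an adjusted p given for 4 and 1 of them.

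Genes listed as general markers of myeloid cells were also higher, and how far they depend on the state of the cells was not tested. Of 10 pan-myeloid genes 9 were called higher (6 by edgeR), both Flox libraries lay above all WT libraries in 10, and the median log2 fold change was 1.94, beside 2.07 for the members. C1qa, a chain of complement C1q, had 627, 743 and 377 normalized counts in WT and 1598 and 4044 in Flox. It rose by 2.28 on the log2 scale (SE 0.58, DESeq2 adjusted p = 0.00356), Aif1, the microglial marker IBA1, by 2.24 (SE 0.72, DESeq2 adjusted p = 0.0307), and Fcer1g, the common Fc receptor gamma chain, by 2.22 (SE 0.35, DESeq2 adjusted p = 4.48e-07). Cd14, a coreceptor for lipopolysaccharide, had 14.7, 6.11 and 10.6 normalized counts in WT and 25.9 and 29.8 in Flox and was not called. Flox 4 was above Flox 2 for all 10, at a median ratio of 2.13, and WT 4 was the lowest WT library for 9. The median fell to 1.29 without Flox 4. The 9 calls became 3 without WT 4, where only 4 of the 10 genes had an adjusted p. Without WT 2 they became 2, with an adjusted p given for 9.

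To set the members against the other microglial genes within a library, the median log2 level of a reference list was subtracted from that of each member, which removes the scaling of the library. Relative to the homeostatic list, both Flox libraries lay above all WT libraries for 7 members (Cst7, Lgals3, Lyz2, Trem2, Tyrobp, Clec7a and Ctss) and below them for Apoe and Lpl, and the median difference over the 10 was 0.92. The share of all genes in either arrangement on this relative scale was not computed, so these counts are a description only. Cst7 stood at -1.79, -2.51 and -1.96 in WT and at -0.64 and -0.17 in Flox, the largest difference (1.68). Lyz2 followed with a difference of 1.49 and Lgals3 with 1.43, while Trem2 and Tyrobp differed by 0.87 and 0.97. Relative to the pan-myeloid list the median difference was -0.17. Against that list only Lyz2 stayed above all WT libraries, at 0.89, 0.91 and 0.97 in WT and 1.31 and 1.33 in Flox, and Apoe, Itgax and Lpl lay below them. Trem2 (a difference of -0.23), Tyrobp (-0.12) and Ctss (-0.12) overlapped between the groups. Whether the members stood above other microglial genes in Flox thus depended on the list they were set against.

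**Figure D5:**
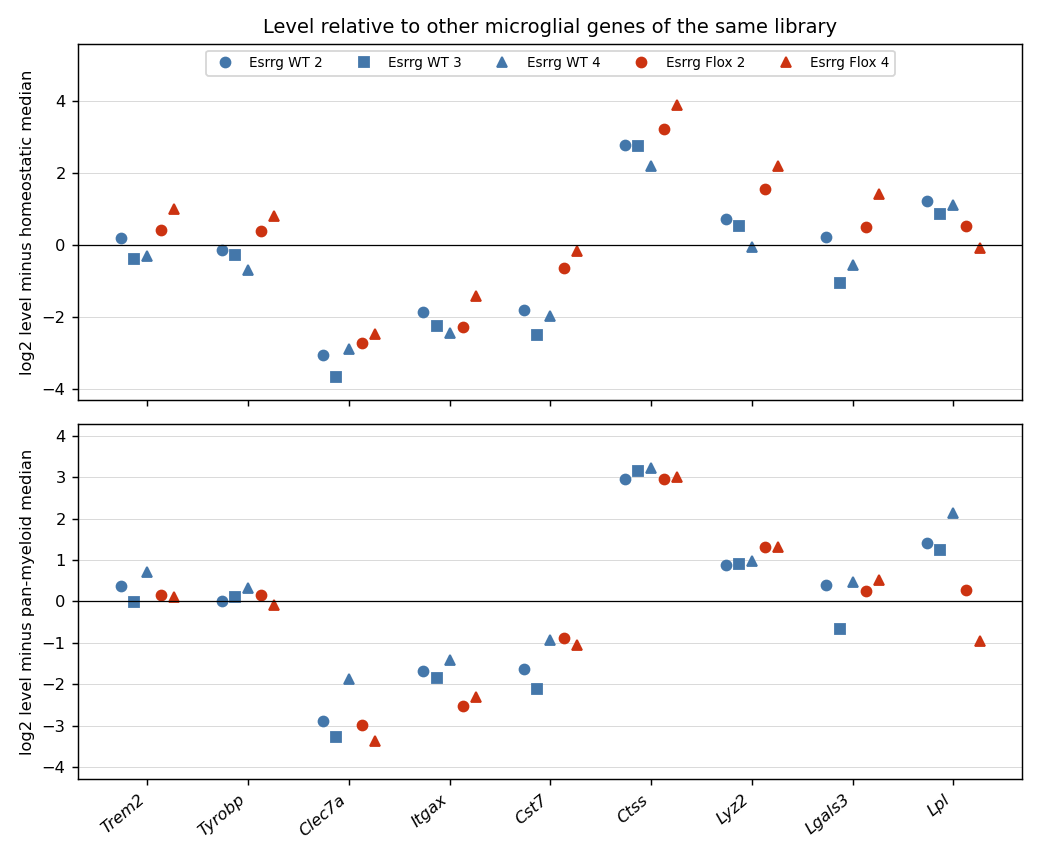
Log2 level of 9 members in each library minus the median log2 level of the homeostatic list (top) or of the pan-myeloid list (bottom) in the same library, with Esrrg WT in blue and Esrrg Flox in red; Apoe is left out for scale. In the top panel both red points lie above the blue points for 7 of the 9 members, and in the bottom panel for Lyz2 alone.

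Some markers of other cells that enter the brain or line its vessels were higher in the same libraries. Of 7 T cell markers 4 had an adjusted p in DESeq2 and 2 were called higher, against 1.81% of all genes tested. By edgeR 1 was called, against 0.607%, and 4 were higher at an unadjusted p under 0.05 in DESeq2. The summed normalized counts ran from 110.5 to 122 in WT and were 212 and 377 in Flox. Of these sums, Trac alone held 74.8, 76.4 and 96.1 in WT and 83.6 and 102 in Flox. Cd8a, the coreceptor of cytotoxic T cells, had 8.43, 7.13 and 1.92 normalized counts in WT and 39.4 and 90.5 in Flox, a log2 fold change of 3.49 (SE 0.64, DESeq2 adjusted p = 1.69e-05). Cd8b1 followed with 3.29 (SE 0.90, DESeq2 adjusted p = 0.00729), Cd3g was at 0 in WT 4, and Trac, the most abundant of the list, was not called (0.17, SE 0.29). Of 12 monocyte and neutrophil markers only 3 had an adjusted p in DESeq2. Called among them were 2, Ly6c2 (1.74, SE 0.51, DESeq2 adjusted p = 0.0143) and Plac8 (1.59, SE 0.51, DESeq2 adjusted p = 0.0278). By edgeR 0 of the 4 tested were called, and 4 of the 12 were higher at an unadjusted p under 0.05 in DESeq2. The sums of the 12 were 90.3 to 131 in WT and 188 and 248 in Flox. The neutrophil markers Ly6g, Camp and Cxcr2 were at 0 in both Flox libraries, and Ly6g, Camp, Ngp and Cxcr2 had at most 2 reads in any library. Of 10 border macrophage markers 0 were called by DESeq2 or edgeR, but only 3 had an adjusted p in DESeq2 and 4 were tested in edgeR. In DESeq2, 2 were higher at an unadjusted p under 0.05, and 9 of 10 log2 fold changes lay above 0. Without WT 3, 1 was called. Stab1 had the highest mean (log2 fold change 1.13, SE 0.46), and Folr2 was at 0 in all WT libraries and in Flox 4. The sums of these markers were 69.2 to 144 in WT and 195 and 222 in Flox. Of 7 endothelial markers 3 were called by DESeq2 and 0 by edgeR, and the sums were 112 to 248 in WT and 266 and 665 in Flox, with Flt1 at 33.7, 45.9 and 25.0 in WT and 54.8 and 224 in Flox. Without Flox 4 or without WT 4, 0 markers of the T cell, monocyte and neutrophil or endothelial lists were called, and none of these markers was given an adjusted p. Without WT 2, 1 T cell marker, 0 monocyte and neutrophil markers and 1 endothelial marker were called, 1 T cell marker was called without WT 3 or without Flox 2, and 0 monocyte and neutrophil markers without Flox 2. The median of the endothelial list was 1.46 and fell to 0.68 without Flox 4. The part of these cells in the members' values was not tested.

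No marker on the lists of neural cells was called. Of 8 oligodendrocyte markers 0 were called and 0 had an unadjusted p under 0.05 in DESeq2, with 0 called by edgeR, at a median log2 fold change of 0.10. Of 9 dopaminergic markers 0 were called by either tool, and the median was -0.08. At an unadjusted p under 0.05 in DESeq2, 1 was higher and 2 lower. Over all 29407 genes with a count, DESeq2 gave 1626 higher and 1671 lower at that level. The receptor tyrosine kinase Ret passed the test lower in Flox at a fold below 1.5 (log2 fold change -0.40, SE 0.10). WT 4, the lowest WT library for most members, was the lowest for 0 of 9 astrocyte, 0 of 8 oligodendrocyte and 0 of 9 dopaminergic markers.

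The mean profile of the members over the 5 libraries, centred on the log2 scale, was -0.50, -0.59 and -1.01 in WT 2, 3 and 4 and 0.50 and 1.59 in Flox 2 and 4. The genes outside the members with the profile most like it, by root mean square distance in log2 units over 12838 genes with a mean of at least 50 normalized counts, were Cyba (0.13), Cd68 (0.15), Cxcl16 (0.17), Laptm5 (0.17), Mpeg1 (0.18), Lag3 (0.19), Ifi30 (0.19) and Ltb (0.21), against a median distance of 0.96. Cyba had 136, 139 and 110.5 normalized counts in WT and 276 and 514 in Flox. Of the members Trem2 was closest to their mean profile (0.12) and Lpl farthest (0.82), with Apoe at 0.73 and Cst7 at 0.50, and these distances describe 5 libraries only.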

How the data were processed

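Poly(A)-selected, non-strand-specific libraries of BAC-TRAP RNA were trimmed with Trim Galore 0.6.6, aligned with STAR and counted per gene with HTSeq-count by the authors. The deposited values are raw counts of reads for each gene, not normalized. The submitters' processing notes name STAR 2.7.9a, HTSeq 0.11.3 and the genome build GRCm39, while the study's methods name earlier versions and GRCm38, so no gene coordinates are given from the table. Reads outside genes, in more than 1 gene or aligned to more than 1 place are not in any gene's count (up to 4.45%, 5.78% and 4.23% per library). Symbols were matched by Ensembl ID to GENCODE M21 for 52093 of 53700 IDs (97.0%), and exon and coding lengths come from the same release.

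The groups were fitted with DESeq2 1.42.0 in R 4.3.3 (Wald test, two-sided, default size factors, independent filtering, Benjamini-Hochberg adjustment over all genes), as in the methods of the study. Calls were made at an adjusted p under 0.05 and a fold change of at least 1.5. The alternative test was edgeR 4.0.16 (quasi-likelihood, TMM). The fit was tested on simulated data with known changes. An exact permutation test of 3 against 2 libraries cannot go below 0.1, so none was used. Each library is a pool of several mice, and the p-values measure the spread between these pools, part of which may be technical. No pair of libraries of a group agreed within sampling noise (chi-square per degree of freedom 4.25 to 20.2). Counting intervals are exact Poisson intervals at 95%. Relative levels used log2(normalized count + 1). The members and all lists were chosen with earlier results of these data known. Named genes are the 10 members, the 3 called genes with the largest absolute log2 fold change and the 2 most abundant uncalled genes of each list, and the 8 genes with the nearest profile, and other genes named were chosen after their values were seen. A gene that the rule names is not reported here. Promoter sequences are from RefSeq (GRCm38.p6). Libraries without Cre were not analysed here.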

Additional observations from a re-analysis of the deposited data

How the results depend on the processing

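The log2 fold changes of the 10 members stayed above 0 under every alternative tried. Of 100 recomputed values, 90 lay within 1 SD of the reported one, 10 moved further and 0 reversed. Those that moved came from leaving out Flox 4, for every member except Lpl, and from leaving out Flox 2 for Clec7a. Turning off independent filtering cannot change a log2 fold change, so the values of that setting could not move. With edgeR in place of DESeq2, the 275 genes called higher became 101 and the 222 called lower 79, the 18 calls of the 75 further genes became 6 and the 4 homeostatic calls 0 (10 at an unadjusted p under 0.05). Without a fold threshold the counts over all genes were 659 and 647. Leaving out 1 library at a time, the genes called higher ran from 14 (without Flox 4) to 436 (without Flox 2) and those called lower from 38 to 457, the members called from 1 (without Flox 4) to 8 with a median log2 fold change from 1.28 to 2.54, the calls of the further genes from 0 (without WT 4) to 22, and the homeostatic calls from 0 (without Flox 4 or WT 4) to 5. Without WT 4, 8 members had an unadjusted p under 0.05 in DESeq2, but an adjusted p was given for only 3. With the lone Flox library, its spread was assumed to be that of the WT libraries. TMM library sizes and the filter on low counts changed no count by over 1.5 times. Set against the pan-myeloid list in place of the homeostatic list, the median relative difference of the members was -0.17 in place of 0.92. The median level of the members in WT was 1.35 CPM per kilobase of exon and 5.72 per kilobase of coding length.

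The libraries numbered 2 and 4 occur in both groups, but the numbers are not stated to mark a shared batch. Deviations from the group means correlated at 0.15 between WT 2 and Flox 2 and at 0.13 between WT 4 and Flox 4, which with 2 shared numbers does not establish a pairing. With the replicate block, 75 genes were called higher and 134 lower, 0 of 10 members (an adjusted p was given for 6, and 6 had an unadjusted p under 0.05), 1 of the further genes and 2 homeostatic genes, at a median log2 fold change of the members of 2.12. At 20635855 to 23105058 counts per library, Clec7a, Itgax and Cst7 rest on only 8 to 23 reads in the WT libraries, which limits the precision of their fold changes.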

Other observations

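Of 21 relatives of the members by protein family or partnership 18 had a count and 8 an adjusted p. By DESeq2 and by edgeR 1 was called higher in Esrrg Flox, against 1.81% and 0.607% of all genes tested, and 0 were called lower. Without Flox 4, 0 were called, and without Flox 2, 2 were. Lgals1, which encodes galectin-1, had 297, 197 and 244 normalized counts in WT and 421 and 721 in Flox, a log2 fold change of 1.21 (SE 0.24, DESeq2 adjusted p = 8.82e-05). The other galectins with counts were not called, with log2 fold changes of -0.10 for Lgals8 (SE 0.16) and -0.29 for Lgals9 (SE 0.20). Cst3, the cystatin secreted by most brain cells, had 19276, 17906 and 24221 normalized counts in WT and 20346 and 29837 in Flox. Apod, an apolipoprotein outside the Apoe family, had 5598, 5164 and 7030.0 in WT and 6312 and 13300.2 in Flox, so that only Flox 4 stood above the WT libraries. Trem1, Trem3 and Treml1, neighbours of Trem2 in its gene family, had at most 2 reads in any library.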
